A study of Mus musculus and Homo sapiens with 4 samples.

Results

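Long non-coding RNAs with an established name were examined in VCaP cells, a human prostate cancer cell line, and in VCaP ERα cells, the same line made to overexpress oestrogen receptor alpha (ERα, encoded by ESR1). Members were all entries of the expression table with a symbol that starts with NCRNA000, NCRNA001, NCRNA002, LINC or SNHG, or that is H19, MEG3, GAS5, PVT1, PCA3 or HOTAIR. NCRNA00084 was left out. The rule used names alone and no measured value, and it selected 20 of 25932 entries. Each cell line was represented by 1 library. The VCaP cells were at passages 5 to 6 and the VCaP ERα cells at passages 4 to 5, both grown in DMEM with 10% fetal bovine serum and with no hormone named in the labels. The VCaP ERα cells expressed introduced ERα stably, and whether the cells were 1 clone or a pool is not given in the sources used here. Ribosomal RNA was depleted from 1 µg of total RNA, the labels call the libraries poly-A- and stranded, and levels are in RPKM (reads scaled by transcript length and by the mapped reads of the library). Positions are those of the files, and hg18 is the human build that the submitters' processing notes name. The series holds 4 libraries, and the other 2 are of mouse fibroblasts.

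Most members are small nucleolar RNA (snoRNA) host genes. A host gene is spliced, its introns are trimmed to the snoRNAs that guide chemical modification of ribosomal and other RNAs, and its spliced exons carry little or no protein-coding sequence. Spliced host RNAs are often short-lived, since the ribosome meets an early stop codon and nonsense-mediated decay removes them, and many belong to the terminal oligopyrimidine transcripts whose translation follows growth signals. GAS5 was first known as a transcript that accumulates in growth-arrested cells. The remaining members include H19, an imprinted RNA made from the maternal copy beside IGF2, PVT1, the neighbour of the MYC oncogene, HOTAIR, a transcript of the HOXC cluster, and PCA3, a prostate cancer marker transcribed within the PRUNE2 gene.

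With 1 library per condition, every difference given here is between those libraries and has no replicate check. The library labelled VCaP did not carry the profile of its label. The 12 prostate luminal markers examined had 0 to 8.18 RPKM there, with a median of 0.127 RPKM and with KLK4 and FOLH1 listed at 0, and 3.16 to 694 RPKM in the VCaP ERα library. KLK3, which encodes prostate-specific antigen, had 0.176 RPKM against 19.8 RPKM. Of 14 luminal breast markers 11 were lower in the VCaP ERα library, among them TFF1 with 1596 RPKM under the VCaP label against 6.998 RPKM for VCaP ERα. The other 3 were higher, among them AGR2 with 114 RPKM (VCaP) and 727 RPKM (VCaP ERα) and TBX3 with 2.64 and 14.4 RPKM. Of 5 basal epithelial markers 3 were lower and 2 higher. Among all entries 41.2% were lower, and among those with at least 1 RPKM in at least 1 library 64.0%. All members were read from these same libraries, no result can be given without them, and the part of this marker difference in the results was not tested. ESR1 itself had 15.7 RPKM and 209 RPKM. In bulk RNA, fewer cells of a type and less RNA per cell cannot be told apart. Entries that reached 1 RPKM in each library numbered 9754 and had a median log2 ratio of -0.59, so an entry at that value followed the bulk of expressed entries. Here and below a log2 ratio is log2 of (RPKM + 1) in VCaP ERα over that in VCaP, which understates the change of low entries.

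The members ranged from entries listed at 0 to some of the most abundant RNAs of the table. In the library labelled VCaP 15 of the 20 had at least 1 RPKM, against 45.4% of all entries, and in VCaP ERα 13 had, against 46.0%. Their median level was 6.98 (VCaP) and 3.57 RPKM (VCaP ERα), while that of all entries was 0.512 and 0.818 RPKM. SNHG6, SNHG8, the 2 SNHG7 entries and GAS5 stood highest in VCaP. In VCaP ERα the order began with SNHG6, SNHG8, GAS5, SNHG5 and SNHG1. Over the 20 members the log2(RPKM + 1) levels of the libraries had a Pearson r of 0.82, and over all entries 0.79, with entries as the points and 1 library on each axis.

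**Figure D1:**
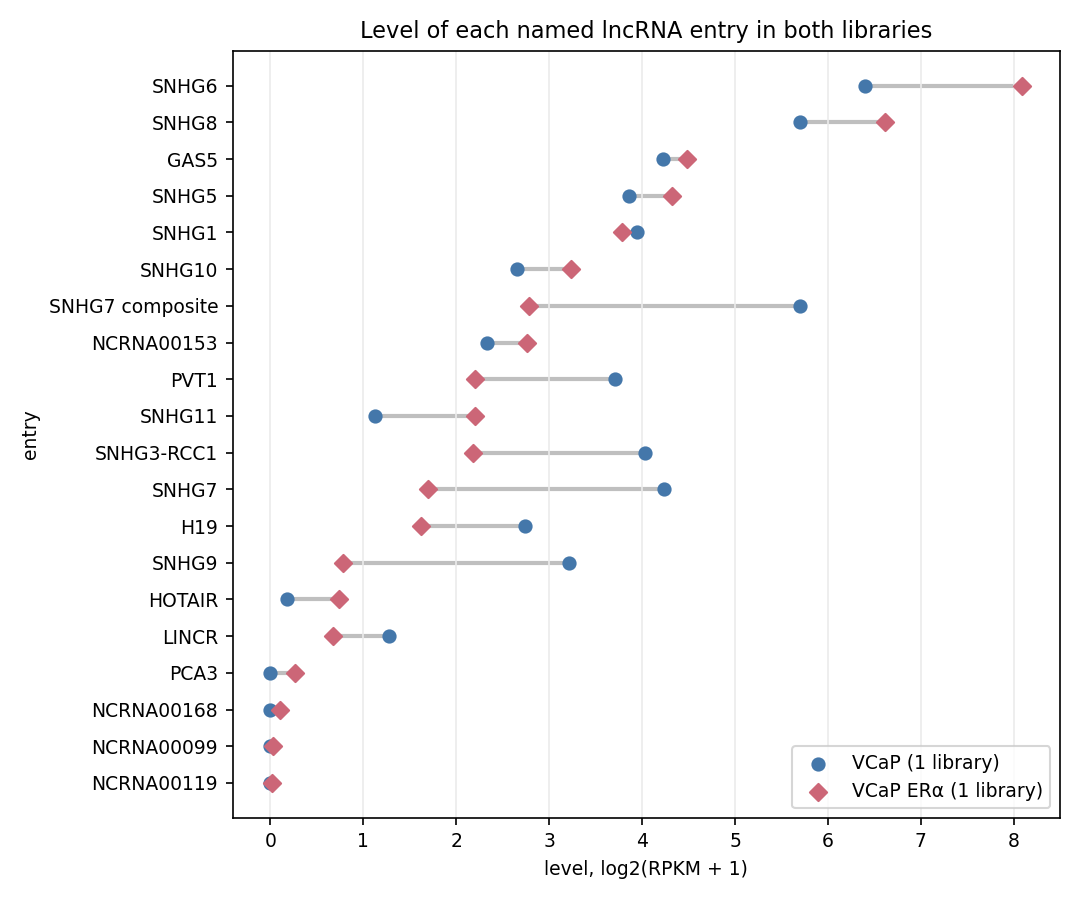
Level of each of the 20 entries as log2(RPKM + 1), with a circle for the VCaP library and a diamond for the VCaP ERα library, ordered by the VCaP ERα level. SNHG6 and SNHG8 stand apart at the top in VCaP ERα (271 and 97.1 RPKM), the grey line of the SNHG7 composite is the longest, and 4 entries have 0 RPKM in VCaP.

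A higher value in VCaP ERα was found for 12 of the 20 members, beside 46.6% of all entries, and a lower one for 8, beside 41.2%. Listed at 0 in VCaP were 4 of the 20 members and 8757 of the 25932 entries, which could not have been lower. In VCaP ERα 0 members and 3607 entries were listed at 0. Past the study's fold limit of 2 on the log2 scale lay 0 members on the higher side, where 2.27% of all entries lay, and 3 on the lower side, where 6.56% of all entries lay. Among the 13954 entries with at least 1 RPKM in at least 1 library those shares were 4.21% and 12.2%, and 15 members met that minimum, 7 of them higher and 8 lower, where 36.0% and 64.0% of those entries were. A log2 ratio above 1 was held by 2 members, beside 9.16% of all entries, and a ratio below -1 by 6 members, beside 18.5%. The 3 members past the limit stand for 2 loci, since SNHG7 is listed on 2 overlapping entries. The median log2 ratio of the 20 members was 0.07, beside 0 for all entries. For the 15 members at 1 RPKM it was -0.16, beside -0.50 for the 13954 entries. With so few members, nothing particular to them was read from these counts.

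**Figure D2:**
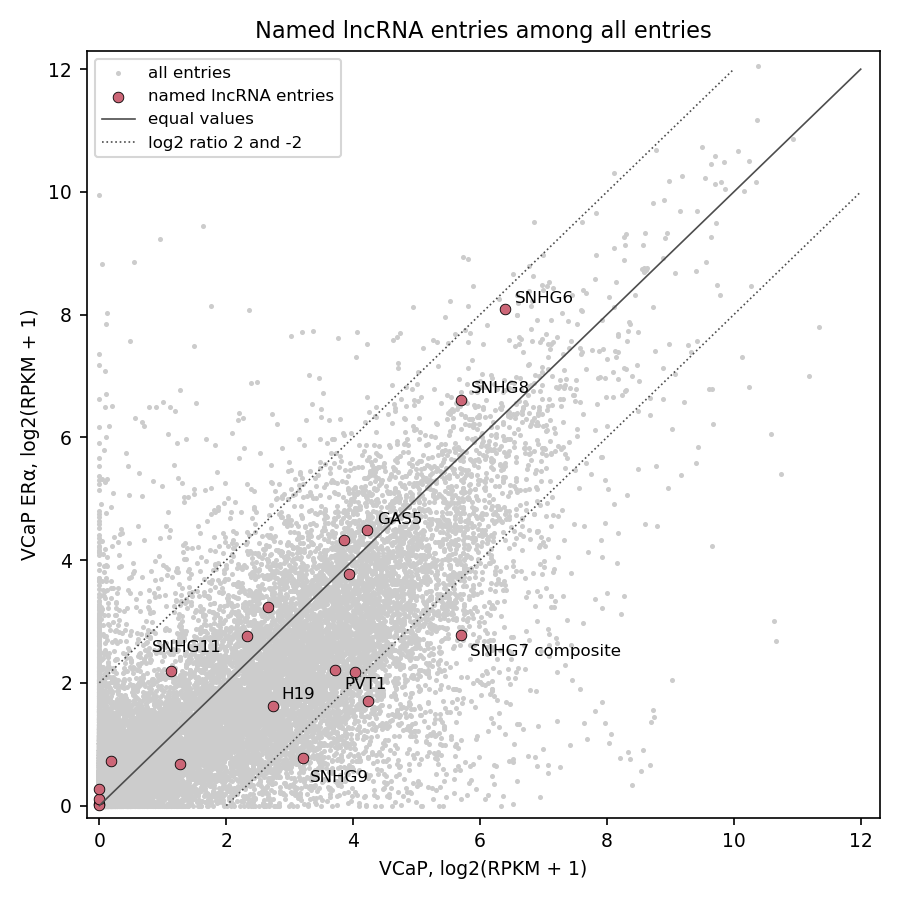
Level in VCaP (x axis) against VCaP ERα (y axis), both as log2(RPKM + 1), for all 25932 entries in grey and the 20 members in red, with lines for equal values and for log2 ratios of 2 and -2. The members spread through the cloud of entries, SNHG6 and SNHG8 lie at its upper end above the line of equal values, and the SNHG7 composite, SNHG7 and SNHG9 lie below the lower dotted line.

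Among the snoRNA hosts SNHG6 had the largest log2 ratio of all members. SNHG6, a 3612-base span on chromosome 8 that hosts SNORD87, had 83.2 RPKM in VCaP against 271 in VCaP ERα. That is a 3.26-fold higher level and a log2 ratio of 1.69, and its rank by level among all entries went from 497 to 87. SNHG8 (chromosome 4, 119419362 to 119420422) hosts SNORA24. It had 51.0 (VCaP) and 97.1 RPKM (VCaP ERα), a 1.90-fold higher level with a log2 ratio of 0.92, and moved from rank 945 to 277. These hosts made up most of the RNA counted over the named loci. Taking 1 entry per lncRNA locus, 17 in all, summed RPKM was 267 in VCaP and 453 in VCaP ERα, and SNHG6 with SNHG8 supplied 50.2% and 81.4% of it.

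Further hosts with higher values were less abundant in VCaP. SNHG11 (chromosome 20, 36508711 to 36512978) had 1.18 RPKM in VCaP against 3.60 in VCaP ERα, 3.05-fold higher with a log2 ratio of 1.08. SNHG10 (chromosome 14, 95069002 to 95070962) had 5.31 and 8.45 RPKM, a log2 ratio of 0.58. SNHG5 (chromosome 6, 86443444 to 86445170), which hosts SNORD50 copies, had 13.5 and 19.02 RPKM, a log2 ratio of 0.46. GAS5 (chromosome 1, 172099662 to 172103748), with the largest set of snoRNA entries in its span, had 17.7 (VCaP) and 21.4 RPKM (VCaP ERα), 1.21-fold higher with a log2 ratio of 0.26. All 6 of these higher hosts lay above the median of expressed entries by at least 0.85 when ratios were centred on it. The SNHG10 entry also names SCARNA13, the SNHG11 entry SNORA39, the SNHG5 entry SNORD50A and SNORD50B, and the GAS5 entry 3 snoRNAs. In these entries reads of the host and of the small RNAs cannot be told apart.

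SNHG1 lay nearest to equal levels among the well-expressed hosts. This host of several C/D box snoRNAs, 6 of which its entry also names, is on chromosome 11 (62376036 to 62379936). SNHG1 had 14.4 RPKM in VCaP against 12.7 in VCaP ERα, a log2 ratio of -0.16. Its direction depended on the scaling, since centring on the median of expressed entries gave 0.43 and quantile normalization 0.57.

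SNHG7 and SNHG9 lay on the other side of 0 and were the loci past the fold limit. The entry that joins SNHG7 with SNORA17 and SNORA43 (called the SNHG7 composite here, chromosome 9, 138738869 to 138742457) had 50.8 (VCaP) and 5.88 RPKM (VCaP ERα). It was 8.63-fold lower, with a log2 ratio of -2.91. The longer SNHG7 entry (chromosome 9, 138735639 to 138742457) had 17.8 and 2.25 RPKM, 7.93-fold lower, with a log2 ratio of -2.54. The composite covers 52.6% of its span, so reads may be shared and the values are not independent. SNHG9 (chromosome 16, 1954998 to 1955506), a short host of SNORA78, had 8.27 RPKM in VCaP against 0.719 in VCaP ERα, 11.5-fold lower, with a log2 ratio of -2.43. In VCaP the composite stood beside SNHG8, and in VCaP ERα the level of SNHG8 was far above it. After centring, the SNHG7 composite alone stayed below -2, at -2.32, and SNHG9 stood at -1.84.

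**Figure D3:**
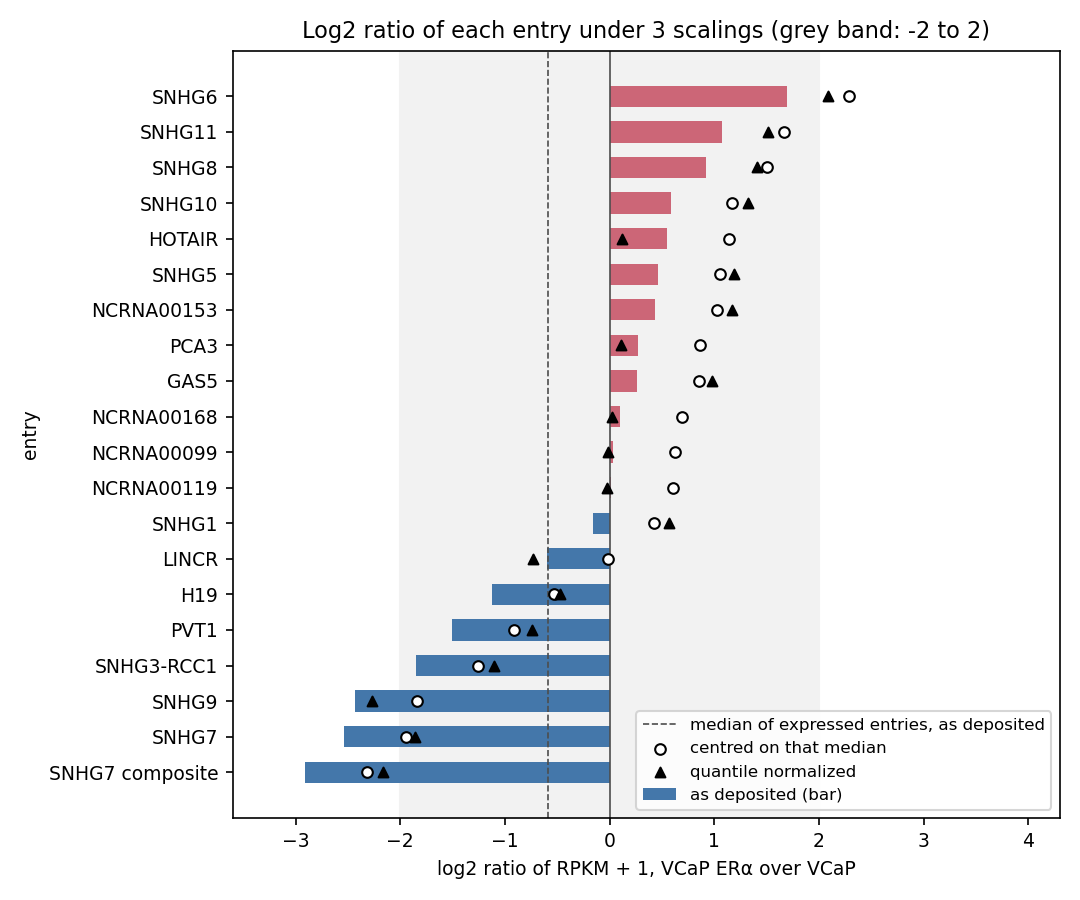
Log2 ratio of RPKM + 1, VCaP ERα over VCaP, for each of the 20 entries as deposited (bars, red higher and blue lower), after centring on the median of expressed entries (open circles) and after quantile normalization (triangles), with that median of -0.59 as a dashed line. SNHG6 passes 2 under both other scalings, the SNHG7 composite stays below -2 under all of them, and SNHG1 changes side under both. NCRNA00099 and NCRNA00119 change side under quantile normalization, where an entry listed at 0 in both libraries also falls below 0.

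Across the 11 host entries 6 were higher and 5 lower, with a median log2 ratio of 0.26. With 1 SNHG7 entry and without the SNHG3-RCC1 entry, 9 host loci remained, of which 6 were higher and 3 lower, with a median of 0.46. All hosts had at least 1 RPKM in at least 1 library. Among the 13954 entries that did, 36.0% were higher and 64.0% lower, with a median of -0.50. The hosts thus did not share a direction, and their values spanned -2.91 to 1.69.

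Several snoRNAs are listed on their own inside the host spans. The table holds 327 snoRNA entries, 12 of which lie within the spans of 5 hosts. Of the 12, 4 were higher and 8 lower, beside 36.0% and 64.0% of entries at 1 RPKM in at least 1 library. The 12 entries span only 42 to 130 bases, so their values may rest on few reads, and depth is unknown. Inside SNHG6, SNORD87 had 2.25 (VCaP) and 9.66 RPKM (VCaP ERα), a log2 ratio of 1.71 beside 1.69 for the host. Inside SNHG8, SNORA24 had 1.53 and 29.8 RPKM, a log2 ratio of 3.61 beside 0.92. Inside SNHG9, SNORA78 had 1.62 RPKM and was listed at 0 in VCaP ERα, on the lower side like its host. For these hosts the snoRNA and host entries lay on the same side of 0.

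Of the 7 snoRNA entries in the span of GAS5 1 was higher and 6 were lower, while the host was slightly higher. These entries span 42 to 80 bases, so few reads may set their values. SNORD81 had 2.44 RPKM in VCaP against 5.03 in VCaP ERα, and was the higher one. SNORD79 had 5.79 and 1.46 RPKM, SNORD78 had 3.19 and 0.0572 RPKM, SNORD44 had 3.16 and 1.64 RPKM, and SNORD74 had 2.23 and 0.129 RPKM. SNORD77 had 6.12 RPKM and SNORD75 5.05 RPKM in VCaP, and both were listed at 0 in VCaP ERα. Within SNHG1, SNORD30 had 1.44 and 1.75 RPKM and SNORD28 4.67 RPKM in both libraries, a difference past the third digit that put it among the 8 lower entries. These snoRNAs are C/D box guides of ribose methylation. Reads from host introns cannot be told apart from snoRNA reads.

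**Figure D4:**
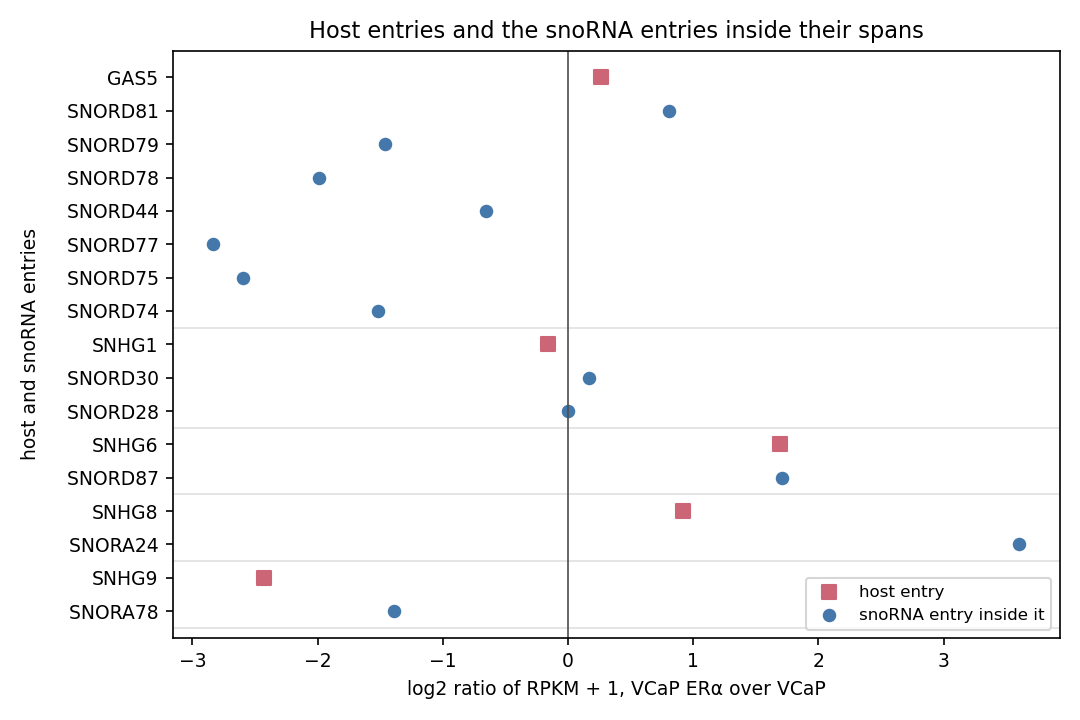
Log2 ratio of RPKM + 1, VCaP ERα over VCaP, for 5 hosts (squares) and the 12 snoRNA entries inside their spans (circles), grouped by host. SNORD87 lies beside SNHG6 (1.71 and 1.69), SNORA24 lies to the right of SNHG8 (3.61 and 0.92), and 6 of 7 circles under GAS5 lie left of 0.

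H19 and PVT1, which host no listed snoRNA, were lower in VCaP ERα. H19 (chromosome 11, 1972982 to 1975641) had 5.70 (VCaP) and 2.08 RPKM (VCaP ERα), 2.74-fold lower, with a log2 ratio of -1.12, or -0.53 after centring. IGF2, the reciprocally imprinted growth factor gene on the same chromosome, was on an entry with 1.75 and 1.17 RPKM, a log2 ratio of -0.34. PVT1 spans 306720 bases on chromosome 8 and starts 53106 bases from the MYC entry. It had 12.1 RPKM in VCaP against 3.61 in VCaP ERα, 3.35-fold lower, with a log2 ratio of -1.50. MYC, a transcription factor that drives growth, had 14.7 and 17.5 RPKM, a log2 ratio of 0.24, so the neighbours lay on opposite sides of 0.

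HOTAIR (chromosome 12, 52642496 to 52648727) remained under 1 RPKM in both libraries, with 0.136 (VCaP) and 0.663 RPKM (VCaP ERα). Its log2 ratio was 0.55 with a pseudocount of 1 and 1.69 with one of 0.1, and 1.14 after centring and 0.12 after quantile normalization. Of the HOXC genes, which encode homeobox factors of body patterning, HOXC11 had 0.316 and 1.18 RPKM, HOXC10 0.298 and 0.536 RPKM, and HOXC12 was listed at 0 in VCaP and had 0.317 RPKM in VCaP ERα. HOXC13 had 7.83 RPKM in VCaP against 0.741 in VCaP ERα, a log2 ratio of -2.34.

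PCA3 (chromosome 9, 78569174 to 78592285) was listed at 0 in the library labelled VCaP and stood at 0.206 RPKM for VCaP ERα, with a log2 ratio of 0.27. The PRUNE2 entry that contains it had 0.133 RPKM and 28.1 RPKM, a log2 ratio of 4.68. PCA3 lies on the opposite strand of an intron of that gene. Whether the counting used strand is not given in the sources used here, so the small PCA3 value cannot be told apart from PRUNE2 intron reads. PCA3 and PRUNE2 had their higher value in the library where the 12 prostate markers were higher, and the part of that difference in the PCA3 value was not tested.

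NCRNA00153 was the 1 member with an NCRNA symbol above the floor. It spans 120612 bases of chromosome 20 (21054646 to 21175258) and had 4.02 (VCaP) and 5.77 RPKM (VCaP ERα), a log2 ratio of 0.43. NCRNA00168 (chromosome 10), NCRNA00099 (chromosome 4) and NCRNA00119 (chromosome 3) were listed at 0 in VCaP and had 0.0730, 0.0226 and 0.0103 RPKM in VCaP ERα. NCRNA00168 lies within ADARB2, which was listed at 0 in VCaP and had 1.43 RPKM in VCaP ERα, and NCRNA00099 lies within KCNIP4, listed at 0 in both libraries. All 4 NCRNA entries were higher as deposited, at any size, beside 46.6% of all entries. The 3 listed at 0 in VCaP could not have been lower as deposited. NCRNA00099 and NCRNA00119 stood at -0.013 and -0.021 after quantile normalization. HULC, a lncRNA listed at 0 in both libraries, stood at -0.029 there, so nothing is read from this change of side. No entry carried a symbol starting with NCRNA002, and none was named MEG3. DLK1, the imprinted neighbour of MEG3, was listed at 0 in VCaP and had 0.530 RPKM in VCaP ERα.

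Some selected entries are not lncRNA loci of their own. LINCR (chromosome 2, 96527107 to 96537573), which the prefix LINC takes in, names a protein-coding ubiquitin ligase gene. It had 1.42 RPKM in VCaP against 0.598 in VCaP ERα, a log2 ratio of -0.60, or -0.01 when centred on expressed entries. SNHG3-RCC1 (chromosome 1, 28705083 to 28738194) joins the host SNHG3 with RCC1, a protein-coding gene for a nuclear exchange factor, so its reads cannot be assigned to SNHG3. It had 15.4 and 3.54 RPKM, a log2 ratio of -1.85, and did not pass the fold limit. Without these and with 1 SNHG7 entry, the 17 lncRNA loci had 12 higher and 5 lower values and a median log2 ratio of 0.26. Over all entries 46.6% were higher and 41.2% lower, with a median of 0, and 4 of the 17 loci were listed at 0 in VCaP.

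Host genes and other lncRNAs often lie close to protein-coding genes, so each was set beside the nearest entry of at least 1 RPKM in either library on each side. This was done for 11 of the 12 lncRNA loci that themselves reached 1 RPKM, GAS5 being left out. It gave 22 flanking entries, 12 lower and 10 higher, with a median log2 ratio of -0.17. Of the 13954 entries that met that minimum 64.0% were lower and 36.0% higher, with a median of -0.50. Gaps ran from 114 bases (SNHG10 to GLRX5) to 3601711 bases (SNHG8 to UGT8), so the counts are not of close neighbours alone. UGT8 and LCN6 were listed at 0 in VCaP and had 1.90 and 1.09 RPKM in VCaP ERα. CGA had 1.03 RPKM in VCaP and was listed at 0 in VCaP ERα. Of the 22, 10 lay on the same side of 0 as the lncRNA and 12 did not. No such share is given here for other pairs of neighbouring entries, so nothing is read from it. NCRNA00153, SNHG10, SNHG11, SNHG5 and SNHG6 lay above both flanks, H19, PVT1, the SNHG7 composite and SNHG9 lay below both, and SNHG1 and SNHG8 lay between.

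The closest flanking entries reported here had other ratios than the lncRNA beside them. ZBTB37, a zinc finger gene 95 bases from GAS5, had 7.82 (VCaP) and 1.89 RPKM (VCaP ERα), a log2 ratio of -1.61, where GAS5 stood at 0.26. SLC3A2, an amino acid transporter chain 158 bases from SNHG1, had 31.1 and 5.33 RPKM, a log2 ratio of -2.34, where SNHG1 stood at -0.16. GLRX5, an iron-sulphur cluster assembly gene 114 bases from SNHG10, had 39.3 and 24.1 RPKM, a log2 ratio of -0.69, where SNHG10 stood at 0.58. RPS2, a ribosomal protein gene 170 bases from SNHG9, had 60.5 and 54.4 RPKM, a log2 ratio of -0.15, where SNHG9 stood at -2.43.

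**Figure D5:**
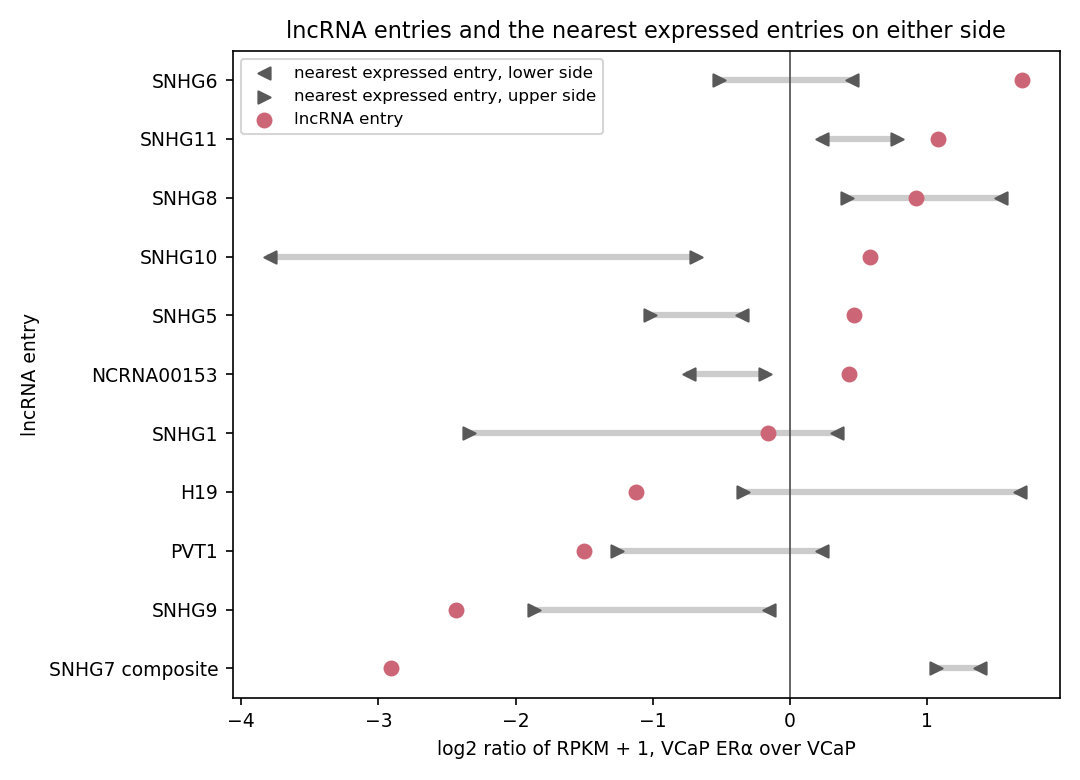
Log2 ratio of RPKM + 1, VCaP ERα over VCaP, for 11 lncRNA entries (red circles) and for the nearest entry with at least 1 RPKM on the lower and upper coordinate side (triangles, joined by a grey line). Circles of 5 entries lie right of both triangles, 4 lie left of both and 2 lie between, with the SNHG10 circle at 0.58 right of triangles at -3.79 and -0.69.

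The members lay on 13 chromosomes, 6 of which carried more than 1. Chromosome medians over entries that reached 1 RPKM in each library ran from -1.49 on chromosome 16, which carries SNHG9, to 0.07 on chromosome 4, which carries SNHG8. Both members were higher on chromosomes 4 and 20 and both lower on chromosome 11, while those on chromosomes 1, 8 and 9 differed in direction. SNHG6 and PVT1 on chromosome 8 stood at 1.69 and -1.50 around a chromosome median of -0.49, and GAS5 and SNHG3-RCC1 on chromosome 1 at 0.26 and -1.85 around -0.60.

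Genes for snoRNA particle proteins and for RNA decay factors were set beside the members. Of 8 core proteins of snoRNA particles 5 were higher and 3 lower, with a median log2 ratio of 0.17. Of entries with at least 1 RPKM in at least 1 library 36.0% were higher and 64.0% lower, with a median of -0.50. Past the fold limit lay 0 of the 8, beside 4.21% of entries at 1 RPKM on the higher side and 12.2% on the lower, from which nothing is read. NOP58, a C/D box core protein, had 8.11 RPKM in VCaP against 14.5 in VCaP ERα, a log2 ratio of 0.76. FBL, the methyltransferase of the C/D box particle, had 43.9 and 35.7 RPKM, -0.29. NHP2, a core protein of the H/ACA particle, had 116 and 41.8 RPKM, -1.45.

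Of 14 nonsense-mediated decay genes 1 was higher and 13 were lower, with a median log2 ratio of -1.18. The 13954 entries at 1 RPKM in at least 1 library had a median of -0.50, and 64.0% of them were lower. Past the fold limit, on the lower side, lay 1 of the 14 genes, beside 12.2% of those entries, from which nothing is read. UPF1, the helicase of the pathway, had 15.8 (VCaP) and 5.77 RPKM (VCaP ERα), a log2 ratio of -1.31. SMG5 had 39.5 and 11.7 RPKM, -1.67, and C17orf71, which encodes SMG8, had 35.3 and 4.93 RPKM, -2.61. CASC3 of the exon junction complex was the higher one, with 6.58 and 9.40 RPKM.

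Of 19 further lncRNAs with names outside the rule 9 had an entry, of which 5 were higher, 3 lower and 1 was listed at 0 in both libraries. Of all entries 46.6% were higher and 41.2% lower. The 5 higher ones stayed under 1 RPKM in both libraries, and the 3 lower ones reached 1 RPKM in both. Past the fold limit lay 0 of the 9, beside 2.27% of all entries on the higher side and 6.56% on the lower. The median log2 ratio of the 9 was 0.17, beside 0 for all entries. TUG1 had 32.8 RPKM in VCaP against 27.5 in VCaP ERα, a log2 ratio of -0.25. TERC, the telomerase RNA, had 14.4 and 5.66 RPKM, -1.21. These lists, like the members, are described by their counts and medians and not by a test.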

How the data were processed

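RNA-seq was analysed from 1 VCaP and 1 VCaP ERα library. The authors deposited RPKM values per gene entry, and entries of the files join known-gene transcripts, symbols and coordinates. The submitters' processing notes name CASAVA 1.8 and the builds hg18 and mm10. The aligner and the counting are not given in the sources used here. Coordinates are printed as in the files, and whether starts count from 0 or 1 is not stated. Depth is unknown. Of 365 entries under 0.1 RPKM in both libraries the most frequent ratio of VCaP ERα to VCaP, rounded to 0.01, was 0.97 (31 entries), then 0.76 (22), so 1 read could not be given a single worth. Log2 ratios took a pseudocount of 1, and the fold limit was 2, as in the study. No test was possible with 1 library per condition. Scripts were tested on simulated data. Alternatives were a pseudocount of 0.1, filters, a limit of 1, median centring, quantile normalization and narrower sets of entries. Members named are the lncRNAs listed in the rule, all SNHG entries, the highest and lowest ratios and levels, and set neighbours, of which 1 is not reported here. The members and all lists were chosen with earlier results of these data known. Computation was in Python 3.11.15 (pandas 2.3.3, numpy 2.4.6), with plots by matplotlib 3.10.9.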

Additional observations from a re-analysis of the deposited data

How the results depend on the processing

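Each result rests on 1 library per condition, so no left-out replicate could be run, depth cannot be weighed, and RPKM assumes equal composition. No paired analysis was possible because each group holds 1 library. A pseudocount cannot change a direction, so that all 20 held at 0.1 was fixed in advance. After centring on the median of expressed entries 19 directions held, and after quantile normalization 17. NCRNA00099 and NCRNA00119 changed side only under quantile normalization, where an entry listed at 0 in both libraries also falls below 0. Centring put 1 member above 2 (SNHG6), beside 4.77% of all entries, and 1 below -2 (the SNHG7 composite), beside 3.35%. It shifts every ratio alike. The median log2 ratio became 0.66 over members and 0.85 over hosts, beside 0.59 over all entries. Quantile normalization put 1 member above 2 (SNHG6), beside 3.87% of all entries, and 2 below -2, beside 3.84%. It gave a host median of 0.97, beside -0.03 over all entries. With at least 1 RPKM in at least 1 library 7 of 15 members were higher, beside 36.0% of such entries. Keeping only member entries with no other symbol and no overlap left H19 and HOTAIR. Of these 1 was higher and 0 were below -2, beside 46.6% and 6.55% of the entries kept. A limit of 1 gave 2 members above it, where 9.16% of all entries lay, and 6 below -1, where 18.5% lay. A pseudocount of 0.1 gave 4 below -2, adding SNHG3-RCC1, beside 11.4% of all entries, and 0 above 2, beside 16.3%. Restricting to the 17 lncRNA loci, chosen after seeing the data, gave 12 higher and 2 below -2, beside 46.6% and 6.56% of all entries. The causes were not tested.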

Other observations

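The mouse fibroblast libraries of the series, 1 wild-type and 1 NEAT1 knockout (KO), hold 15 entries for Gas5, H19, Meg3, Pvt1 and the Snhg genes. These are poly-A+ libraries with RPKM values, and with 1 library each they are given as values. Against wild type 4 entries were higher in NEAT1 KO and 11 were lower, with a median log2 ratio of RPKM + 1 of -0.17, beside -0.06 for 10888 entries with at least 1 RPKM in both. No share of higher and lower over all mouse entries is given here, so nothing is read from those counts. Snhg1 had 26.8 RPKM in wild type against 65.7 in NEAT1 KO, a log2 ratio of 1.26. It was the 1 entry above 1, where 0.977% of 23329 entries lay. That share counts all entries, of which only 10888 had at least 1 RPKM in both libraries, so it is low for expressed entries. Snhg6, with 111 and 159 RPKM, a log2 ratio of 0.52, was the most abundant Snhg RNA here as it was among the VCaP members. H19 had 1089 and 782 RPKM, Meg3 13.3 and 7.72 RPKM and Gas5 23.0 and 16.7 RPKM, each lower in NEAT1 KO. Snhg8 had 11.1 and 12.2 RPKM and Snhg7 4.32 and 3.25 RPKM.

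Host genes are known as terminal oligopyrimidine transcripts, so the RefSeq promoters of the mouse genes (GRCm38.p6) were searched for a run of at least 5 C or T that starts with C at the annotated start, on the strand of the gene. Snhg4, Snhg6, H19 and Pvt1 were not searched here. The run was present in 3 of 13 promoters of 11 genes, and in 2.51% of 32851 mouse promoters. The palindromic oestrogen response element consensus, sought on both strands, was in 0 of the 13 and in 0.07% of all. The matches are shown from 10 bases before to 20 bases from the start, with the run in capitals, so that its place can be seen. Gas5 is at chr1:161035156-161035185 on the plus strand, Snhg7 at chr2:26640225-26640254 and Snhg8 at chr3:123508317-123508346 on the minus strand.
Gas5: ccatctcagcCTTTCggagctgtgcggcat
Snhg7: gatgctcggcCTCTCggcagccatggcggc
Snhg8: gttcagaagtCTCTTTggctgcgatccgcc
A match is a description of letters and says nothing about translation of these RNAs.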
